A study of Mus musculus with 11 samples.

Results

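Mouse neural stem cell cultures that had spent 4 days in an oligodendrocyte medium were compared with cultures of the same origin at day 0. The cells came from the frontal cortex of E14.5 embryos of the C57BL/6J strain and had been grown in NeuroCult proliferation medium, which is the medium of the day 0 group (NSC, 3 libraries). The Oligodendrocyte group (2 libraries) had then received Neurobasal medium with T3, the active thyroid hormone, at 30 ng/mL, besides B-27 at 2% and GlutaMAX-1 at 2 mM. RNA of both groups was sequenced as poly(A)-selected, strand-specific libraries, and the abundance of each gene was deposited as CPM, its reads scaled to a common library total. The comparison covers the 12865 of 37991 listed genes that reached at least 1 CPM in at least 2 of these 5 libraries, called members below. Group names follow the medium, not the cells that were found, and no library came from cells kept in proliferation medium until day 4, so the change of medium and the time in culture cannot be told apart. The Neuron group (3 libraries) had the same Neurobasal medium with B-27 and GlutaMAX-1 but no added T3. The Astrocyte group (3 libraries) had DMEM with 1% N-2, 1% fetal bovine serum and 2 mM GlutaMAX-1. Both groups, also from day 4, served to show where the Oligodendrocyte medium differed.

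Oligodendrocytes are the cells that wrap axons of the central nervous system in myelin, a stack of membrane rich in cholesterol and galactolipids and held together by a few abundant proteins. A neural stem cell reaches that state through a dividing precursor, which leaves the cell cycle before it switches on myelin genes under Sox10 and Myrf. Thyroid hormone acts through nuclear receptors and is known to promote that exit and the later maturation.

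The libraries of both groups were of similar depth, with an estimated 57.4 to 59.3 M (mega) reads in NSC and 63.4 to 64.2 M in Oligodendrocyte. Across the tested genes, which are not independent replicates, the correlation of log2(CPM + 1) was 0.998 to 0.999 within NSC, 0.998 within Oligodendrocyte and 0.830 to 0.832 between them. The listed genes together held 74.95% to 76.9% of the CPM total in NSC and 80.1% to 80.2% in Oligodendrocyte, so the deposited columns differ in their sums. As shares of the same total, genes of the mitochondrial genome took 4.54% to 4.71% in NSC and 6.13% to 6.70% in Oligodendrocyte. The design text calls the replicates biological, but no label ties a replicate to a separate culture or litter, so p-values measure the spread between these libraries. No batch was given.

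More genes rose than fell between day 0 and day 4, by the deposited scale. Changes are differences of mean log2(CPM + 1), tested with limma over all 11 libraries and called at a Benjamini-Hochberg (BH) adjusted p under 0.05. Of the 12865 members, 10414 were called, 6133 higher and 4281 lower in Oligodendrocyte, while 80.2% of all 13342 genes tested were called. A change of at least 2-fold was called for 2820 members higher and 1433 lower, while among all tested genes 21.2% were higher and 10.7% lower by this rule (32.0% in all). For 11543 members the values of the 2 groups did not overlap, and the share among all tested genes was 89.3%. The size of the changes reached at least 16-fold in 134 members that rose and 60 that fell. A total of 1054 members reached the minimum in the Oligodendrocyte libraries alone and 334 in the NSC libraries alone. The choice of members favoured a difference between the groups in these, though not all of them were called. Among the 11467 members that reached it in both groups, 2048 were higher by at least 2-fold and 1306 lower. Near the minimum, 110 members exceeded it by under 10% and 127 other genes missed it by under 10%. The balance depended on scaling: higher genes made up 66.3% of the 2-fold calls as deposited, 54.95% once the columns were rescaled by median of ratios and 50.6% after quantile normalization. Among all called members the share of higher genes was 58.9% as deposited, 48.8% after median-of-ratios scaling and 48.2% after quantile normalization, so that under both rescalings more genes were called lower than higher. The median log2 change of all tested genes was 0.19, and changes near that size have no firm direction.

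Among called members with a group mean of at least 10 CPM and no overlap between the libraries of the 2 groups, Mbp rose most and Fbln2 fell most. The 12 largest rises of such members included those of Mbp, Enpp6, Pla2g7, Nfasc, Gfap, Hr, Naaa, Iqsec3, Tspan18, Tmem163 and Tfcp2l1. Of these, Enpp6, Hr, Naaa, Iqsec3, Tspan18, Tmem163 and Tfcp2l1 reached the minimum through the Oligodendrocyte libraries alone. The direction of those genes was thus set by the choice of members. The 12 largest falls were those of Fbln2, Cd93, Tnc, Ccnb1, Plk1, Hmmr, Ccnd1, Fam64a, Depdc1a, Cenpf, Mki67 and Cdc20.

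**Figure D1:**
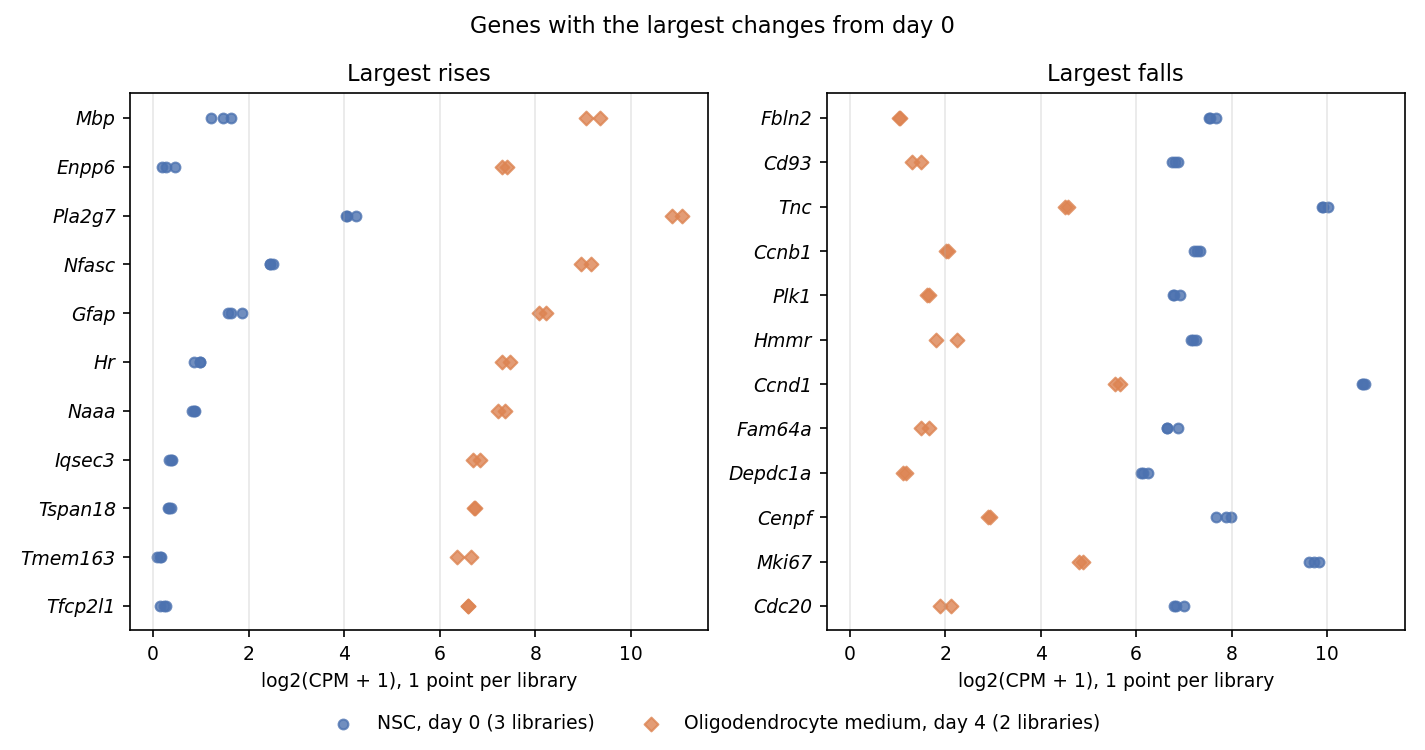
Values of log2(CPM + 1) on the horizontal axis for 11 of the 12 genes with the largest rise (left) and the 12 with the largest fall (right), 1 point per library. Circles are the 3 NSC libraries and diamonds the 2 Oligodendrocyte libraries. The 2 groups lie apart in every gene shown because only genes without overlap were chosen. Enpp6, Hr, Naaa, Iqsec3, Tspan18, Tmem163 and Tfcp2l1 were also members through the Oligodendrocyte libraries alone. The smallest of the falls is that of Cdc20, with a log2 change of -4.87.

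Genes of the myelin sheath rose in the Oligodendrocyte medium. Myelin basic protein (Mbp; ENSMUSG00000041607, mm9 chromosome 18, 82644538 to 82755029), which seals the inner faces of the myelin membrane, had 1.3, 1.74 and 2.09 CPM in the NSC libraries and 533 and 655 CPM in the Oligodendrocyte libraries. The groups were far apart, with a log2 change of 7.78 (SE 0.16, adjusted p = 1.27e-13). Fewer cells that express a gene and less RNA per cell cannot be told apart in such bulk samples, here and in all that follows.

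All 14 members of a list of 16 myelin structure genes were called higher, with a median log2 change of 3.46 against 0.19 over all tested genes, of which 48.1% were called higher. Under median-of-ratios scaling 13 were called. Of the 14, 4 (Mog, Mag, Mobp and Mal) reached the minimum through the Oligodendrocyte libraries alone, so that their direction was set by the choice of members and their part of the count is a description. The list's summed level was 247 to 276 CPM in the NSC libraries and 3123 to 3482 CPM in the Oligodendrocyte libraries. Myelin oligodendrocyte glycoprotein (Mog; ENSMUSG00000076439, mm9 chromosome 17, 37147691 to 37160343), an outer-surface protein that appears late in maturation, had 0.02, 0 and 0 CPM in NSC and 9.42 and 9.77 CPM in Oligodendrocyte (log2 change 3.4, SE 0.152). Myelin-associated glycoprotein (Mag; ENSMUSG00000036634, mm9 chromosome 7, 31684202 to 31699851), which sits on the membrane next to the axon, had 0.02, 0.02 and 0 CPM at day 0 and 29.2 and 34.5 CPM at day 4 (log2 change 5.02, SE 0.0994). Both were near 0 in each day 0 library and clearly above it in each day 4 library. Cnp (ENSMUSG00000006782, mm9 chromosome 11, 100436218 to 100453043), an enzyme that keeps cytoplasmic channels in myelin open, was already present at day 0 with 60.5, 59.5 and 67.3 CPM and reached 644 and 797 CPM. Cldn11, the tight junction protein of myelin, rose by 5.31 on the log2 scale, Mobp by 3.97, Gjc3, a glial connexin, by 3.69, Mal by 3.42, Cryab by 2.85, Tspan2 by 2.76, Pllp by 2.03 and Plekhb1 by 1.64. Gjb1, a connexin of mature oligodendrocytes, did not meet the minimum and had 0.02, 0.02 and 0 CPM at day 0 and 0.09 and 0.17 CPM at day 4.

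Enzymes for the galactolipids of myelin rose, while several genes of mature oligodendrocyte metabolism were lower. Of the 10 members among 11 myelin lipid enzymes and carriers, 6 rose, 3 fell and 1 was not called (median log2 change 1.35). Of all tested genes, 48.1% were called higher and 32.2% lower. Fa2h and Gal3st1 reached the minimum through the Oligodendrocyte libraries alone and Trf through the NSC libraries alone. The direction of these genes was thus set by the choice of members. Ugt8a, which makes galactosylceramide, had 3.73, 4.08 and 4.01 CPM in NSC and 108 and 129 CPM in Oligodendrocyte. Fa2h, which hydroxylates its fatty acid, had 0.2, 0.12 and 0.24 CPM at day 0 and 29.4 and 32.2 CPM at day 4, and Gal3st1, which sulfates galactosylceramide, had 0.69, 0.71 and 0.59 CPM at day 0 and 14.1 and 15.4 CPM at day 4. All 3 were higher in each Oligodendrocyte library than in any NSC library, which for Fa2h and Gal3st1 followed from the choice of members. The log2 changes were 4.6, 4.74 and 3.24. The fatty acid elongase Elovl7 rose by 5.27 on that scale and Pla2g16 by 2.41. In contrast, Car2, a carbonic anhydrase found in mature oligodendrocytes, had 103, 102 and 114 CPM in NSC and 26.2 and 23.0 CPM in Oligodendrocyte (log2 change -2.07, SE 0.106, adjusted p = 4.72e-10). Trf, the iron carrier transferrin, was also lower, by -0.95 (SE 0.13), and so was Aspa, which splits N-acetylaspartate, by -0.29 (SE 0.106, adjusted p = 0.0227). The call for Aspa was lost without Oligodendrocyte replicate 2 (adjusted p = 0.240), NSC replicate 1 (0.0676) or NSC replicate 3 (0.0636).

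Genes of the maturing, newly postmitotic oligodendrocyte rose together. All 16 members of a list of 18 were called higher (median log2 change 3.22), where 48.1% of all tested genes were. Of these, 6, among them Enpp6, Opalin, Lpar1 and Tmem88b, reached the minimum through the Oligodendrocyte libraries alone, so that they could only be higher, and 10 reached it in NSC as well. The list's summed level went from 577 to 611 CPM in NSC to 3944 to 4222 CPM in Oligodendrocyte. Enpp6 (ENSMUSG00000038173, mm9 chromosome 8, 48072279 to 48180249), a choline phosphodiesterase that marks newly forming oligodendrocytes, had 0.37, 0.21 and 0.13 CPM at day 0 and 157 and 169 CPM at day 4. Gpr17, a receptor of the stage just after division stops, had 6.4, 5.86 and 7.08 CPM at day 0 and 578 and 646 CPM at day 4. Bcas1, a marker of early myelinating cells, had 20.9, 20.9 and 21.9 CPM at day 0 and 575 and 569 CPM at day 4. Every Oligodendrocyte library exceeded every NSC library in these genes, and the log2 changes were 7.05 (SE 0.181), 6.36 (SE 0.151) and 4.69 (SE 0.109). Nfasc, whose glial form anchors the myelin edge to the axon, rose by 6.6, the lysophosphatidic acid receptor Lpar1 by 5.37, Tmem88b by 4.3, the semaphorin Sema4d by 4.01 and the tubulin deacetylase Sirt2 by 4.0. Opalin, a paranodal loop protein of mature cells, rose from 0.08, 0.12 and 0.2 CPM at day 0 to 2.88 and 3.36 CPM at day 4 (log2 change 1.86). Ermn, a cytoskeletal protein of late myelination, did not meet the minimum and had 0.31 and 0.52 CPM at day 4.

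The transcription factors of the lineage moved in both directions. Of 13 listed, all members, 8 rose and 5 fell, where 48.1% of all tested genes were called higher and 32.2% lower. Of the 8, St18 reached the minimum through the Oligodendrocyte libraries alone. Myrf (listed under the older symbol Gm98; ENSMUSG00000036098, mm9 chromosome 19, 10282762 to 10315238), the membrane-bound factor that switches on myelin genes, had 2.92, 2.82 and 3.1 CPM in NSC and 169 and 190.5 CPM in Oligodendrocyte (log2 change 5.51, SE 0.226, adjusted p = 4.80e-11). Sox10 (ENSMUSG00000033006, mm9 chromosome 15, 78985343 to 78994920), which acts with it, had 2.25, 2.56 and 3.32 CPM at day 0 and 35.5 and 38.5 CPM at day 4 (log2 change 3.37). Both were higher in each day 4 library. Nkx6-2, which is tied to late differentiation, rose by 2.9, the repressor Zfp536 by 3.02, St18 by 2.05, Zfp488 by 1.54, Sox8 by 0.96 and the Wnt effector Tcf7l2 by 0.81. Among the 5 that fell were Olig2, Olig1 and Nkx2-2, which act early in the lineage, and the other two fell by less than 2-fold. Olig2 (ENSMUSG00000039830, mm9 chromosome 16, 91225795 to 91228922), which specifies the lineage, had 704, 706 and 788 CPM in NSC and 224 and 237 CPM in Oligodendrocyte. Its neighbour Olig1 had 1024, 991 and 1043 CPM at day 0 and 395 and 434 CPM at day 4. The log2 changes were -1.66 (SE 0.0894) and -1.3 (SE 0.0772), and Nkx2-2, a factor of the step out of the precursor state, changed by -1.16 (SE 0.0957).

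Factors known to hold back maturation were split. Of 13, 6 rose, 5 fell and 2 were not called, beside 48.1% higher and 32.2% lower among all tested genes. Id4, an inhibitor of basic helix-loop-helix factors such as the Olig proteins, had 2.63, 3.35 and 2.93 CPM in NSC and 156 and 129 CPM in Oligodendrocyte (log2 change 5.17, SE 0.09, adjusted p = 4.53e-14), the largest change of the list. Hey1, a Notch target, rose by 2.1, Id2 by 1.66, Sox6 by 1.07 and Sox9 by 1.04. Hes5 and Hes1, the classical Notch targets, changed by -1.68 and -1.55, Id3 by -1.72, Sox11 by -2.05 and Sox5 by -1.26. The related factors thus did not share a direction within the Id, Hes/Hey or Sox families.

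Precursor genes moved in both directions. All 12 listed were members, of which 8 rose and 4 fell (median log2 change 1.23), with Gpr17 counted here too. Of the 12, 1 reached the minimum through the Oligodendrocyte libraries alone, so that its direction was set by the choice of members. Among all tested genes 48.1% were called higher and 32.2% lower. Pdgfra, the receptor that keeps precursors dividing, had 21.2, 22.1 and 20.2 CPM in NSC and 66.2 and 66.2 CPM in Oligodendrocyte (log2 change 1.6, SE 0.125). Tnr, a matrix glycoprotein of precursors and young oligodendrocytes, had 18.5, 20.9 and 15.0 CPM at day 0 and 426 and 500.3 CPM at day 4 (log2 change 4.61, SE 0.374). Cspg4, the NG2 proteoglycan of dividing precursors, was lower, with 62.1, 62.5 and 58.5 CPM at day 0 and 37.0 and 36.2 CPM at day 4 (log2 change -0.72). Cspg5, another proteoglycan of precursors, changed by -1.0.

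**Figure D2:**
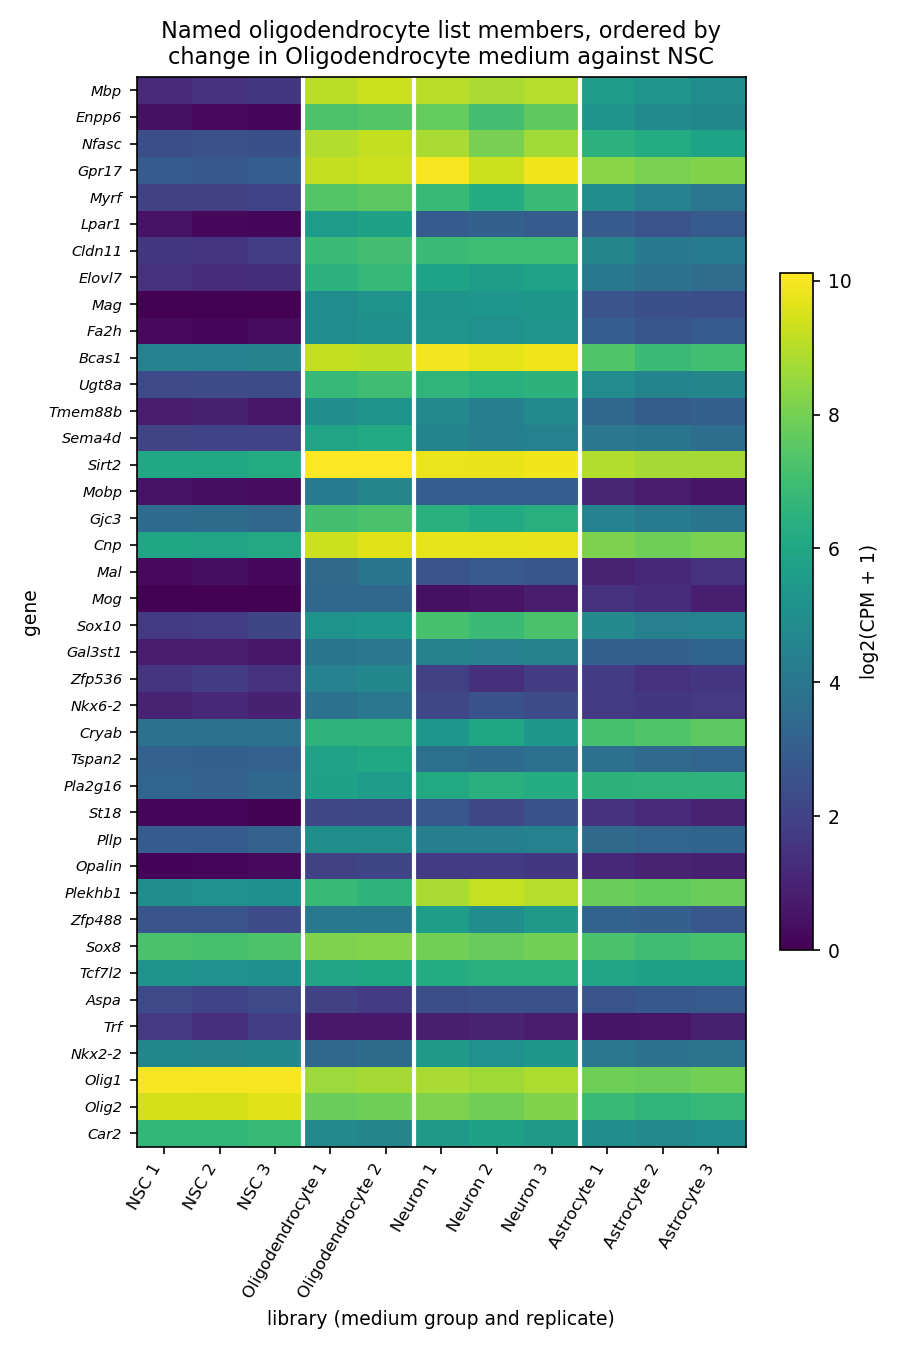
Colour gives log2(CPM + 1) for each member of the oligodendrocyte lists that is named in the text (rows, ordered by change in Oligodendrocyte against NSC) in each of the 11 libraries (columns), with white lines between the groups. Mbp and Enpp6 head the list and are high in Oligodendrocyte and Neuron, whereas Olig1, Olig2 and Car2 at the foot are highest in NSC.

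Stem cell genes were mostly lower at day 4, but not all. Of 16 listed, 10 fell, 3 rose and 3 were not called (median log2 change -0.71), beside 32.2% lower and 48.1% higher among all tested genes. Nes, the intermediate filament nestin of neural stem cells, had 1253, 1246 and 1255 CPM in NSC and 411 and 427 CPM in Oligodendrocyte (log2 change -1.58, SE 0.09). Tnc (ENSMUSG00000028364, mm9 chromosome 4, 63620819 to 63681760), a matrix protein of stem cell niches, had 953, 1037 and 967 CPM at day 0 and 21.6 and 22.7 CPM at day 4 (log2 change -5.41, SE 0.168), and the growth factor receptor Egfr changed by -2.27. Each of these was lower in both day 4 libraries than in any day 0 library. Of the transcription factors of the stem cell state, Sox2 had 280.0, 278 and 286 CPM in NSC and 325 and 306 CPM in Oligodendrocyte (log2 change 0.16, adjusted p = 0.0692), and Pax6 had 35.1, 37.6 and 37.7 CPM at day 0 and 40.7 and 35.9 CPM at day 4 (log2 change 0.05, adjusted p = 0.509). Neither was called. Both changed sign under median-of-ratios scaling (Sox2 -0.0523, Pax6 -0.158), and Pax6 did so without Oligodendrocyte replicate 1 (-0.0351). Prom1, a surface marker of radial cells, rose by 2.56 and the RNA-binding protein Msi1 by 1.35.

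The cell division programme was lower in every listed gene of replication and mitosis. All 24 mitosis genes fell, with a median log2 change of -4.45 and a range from -5.24 to -3.81, while 32.2% of all tested genes were called lower. Their summed level was 4401 to 4504 CPM in the NSC libraries and 171 to 174 CPM in the Oligodendrocyte libraries. All 24 DNA replication genes fell too (median -2.94), from 3070 to 3269 CPM in sum to 379 to 395 CPM. Cyclin B1 (Ccnb1; ENSMUSG00000041431, mm9 chromosome 13, 101548605 to 101556525), the partner of Cdk1 at the entry into mitosis, had 154, 148 and 162 CPM in NSC and 3.15 and 3.05 CPM in Oligodendrocyte (log2 change -5.24, SE 0.183, adjusted p = 9.79e-12). The mitotic kinase Plk1 (ENSMUSG00000030867, mm9 chromosome 7, 129302951 to 129313389) had 110.0, 108 and 119 CPM at day 0 and 2.18 and 2.07 CPM at day 4 (log2 change -5.18, SE 0.135). Mki67 (ENSMUSG00000031004, mm9 chromosome 7, 142881471 to 142908062), which coats mitotic chromosomes, had 849, 902 and 784 CPM at day 0 and 28.5 and 26.8 CPM at day 4 (log2 change -4.88, SE 0.188). The day 4 values of these genes were low but above 0 in both libraries. Among the replication genes Uhrf1, which carries DNA methylation through replication, changed by -3.96, the thymidine kinase Tk1 by -3.95, the helicase subunit Mcm3 by -3.66 and Rrm2 by -3.56.

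The promoters of these genes are shown because the 2 lists fell throughout and because such promoters are known to carry shared elements. In mitosis genes these are the cell cycle homology region (searched as TTTGAA) and the CCAAT box (CCAAT), and in replication genes the E2F site (searched as TTCCCGC or TTGGCGC). Each sequence is the 250 bases before the RefSeq start on build GRCm38.p6, printed 5′ to 3′ along the gene, with matches on either strand in capitals. The first 4 are the mitosis genes with the largest falls that have a single start in the table, and the last 2 are the replication genes with the largest falls among those with a single start and an E2F match.
Ccnb1 (chr13:100786487-100786736, minus strand): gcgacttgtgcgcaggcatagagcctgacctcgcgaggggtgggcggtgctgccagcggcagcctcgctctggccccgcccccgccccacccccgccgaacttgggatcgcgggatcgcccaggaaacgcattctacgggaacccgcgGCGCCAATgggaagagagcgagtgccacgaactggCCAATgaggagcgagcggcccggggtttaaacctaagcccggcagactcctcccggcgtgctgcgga
Plk1 (chr7:122159185-122159434, plus strand): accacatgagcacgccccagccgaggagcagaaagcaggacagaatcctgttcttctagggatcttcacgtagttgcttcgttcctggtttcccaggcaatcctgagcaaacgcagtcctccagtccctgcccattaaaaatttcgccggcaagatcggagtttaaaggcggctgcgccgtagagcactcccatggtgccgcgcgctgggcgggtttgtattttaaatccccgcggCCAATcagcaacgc
Cenpf (chr1:189688087-189688336, minus strand): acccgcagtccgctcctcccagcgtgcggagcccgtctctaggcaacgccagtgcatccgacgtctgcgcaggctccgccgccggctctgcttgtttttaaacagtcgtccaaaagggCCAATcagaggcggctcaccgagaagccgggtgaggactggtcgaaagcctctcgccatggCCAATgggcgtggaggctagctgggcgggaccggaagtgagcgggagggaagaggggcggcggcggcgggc
Mki67 (chr7:135716380-135716629, minus strand): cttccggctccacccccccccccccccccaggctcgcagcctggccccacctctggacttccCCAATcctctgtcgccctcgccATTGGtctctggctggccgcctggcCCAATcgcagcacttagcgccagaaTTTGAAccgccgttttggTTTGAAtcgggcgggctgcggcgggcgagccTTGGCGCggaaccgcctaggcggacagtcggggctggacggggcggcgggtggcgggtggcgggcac
Mcm5 (chr8:75109259-75109508, plus strand): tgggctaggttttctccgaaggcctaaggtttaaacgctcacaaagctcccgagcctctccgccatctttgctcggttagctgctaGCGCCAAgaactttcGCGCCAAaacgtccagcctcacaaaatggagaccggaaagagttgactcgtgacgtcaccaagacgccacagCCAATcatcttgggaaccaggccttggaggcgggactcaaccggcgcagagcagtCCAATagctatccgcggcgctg
Chaf1b (chr16:93883651-93883900, plus strand): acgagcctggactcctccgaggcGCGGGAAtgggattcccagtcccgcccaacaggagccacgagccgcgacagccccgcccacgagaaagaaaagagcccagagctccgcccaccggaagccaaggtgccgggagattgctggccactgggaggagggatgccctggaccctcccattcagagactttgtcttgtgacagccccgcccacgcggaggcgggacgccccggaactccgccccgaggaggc
The Mki67 promoter held 2 cell cycle homology regions, the nearest base of which lay 93 bases before the start, besides 3 CCAAT boxes and 1 E2F match. In Ccnb1 a CCAAT box and an E2F match overlapped between 102 and 95 bases before the start. In Plk1 the match was a CCAAT box 14 to 10 bases before the start. Of the 19 mitosis genes with a promoter in the table, 16 (84.2%) held a CCAAT box and 7 (36.8%) a cell cycle homology region, whereas 33.8% and 15.99% of all 32851 promoters did. An E2F match was present in 10 of 22 promoters of replication genes (45.5%), in 3 of the 19 of mitosis genes (15.8%) and in 5.62% of all. The CCAAT box was found in 16 of the 22 promoters of replication genes as well (72.7%). Myelin structure genes, which moved in the opposite direction, had a CCAAT box in 6 of 15 promoters (40.0%) and an E2F match in 1. These matches describe letters in a window, and they show no binding.

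**Figure D3:**
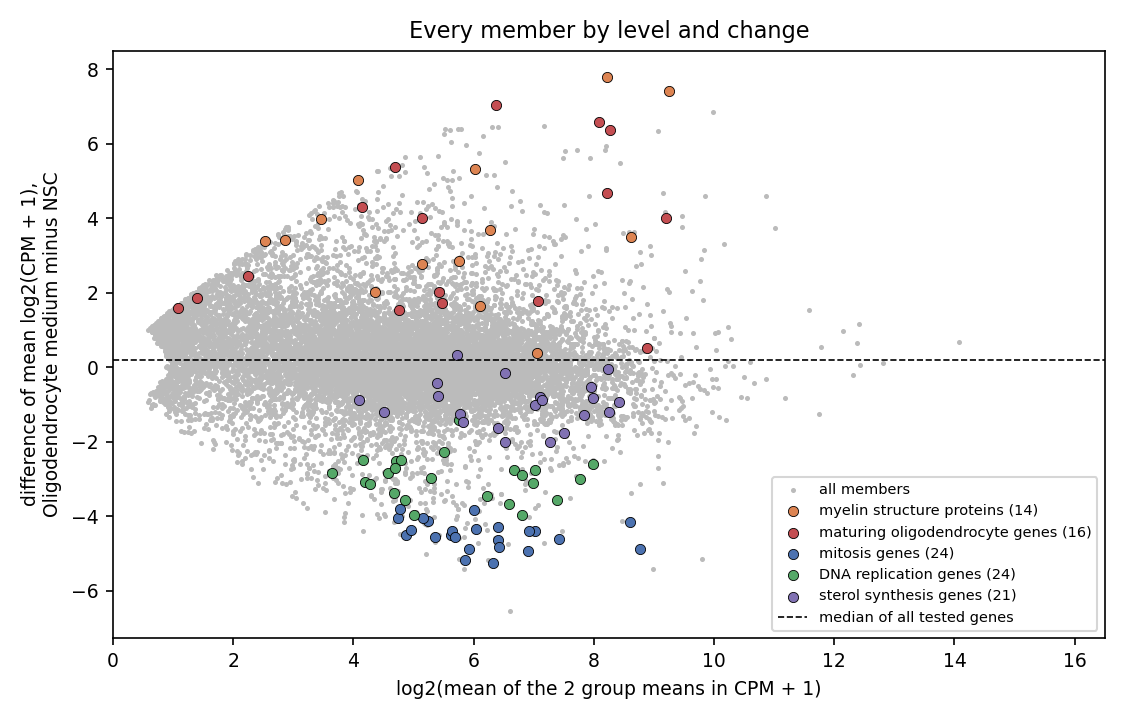
Each grey point is a member, placed by its level (horizontal axis, log2 of the mean of the 2 group means in CPM, plus 1) and by its change (vertical axis, Oligodendrocyte minus NSC on the log2(CPM + 1) scale), with 5 lists in colour and the median of all tested genes, 0.19, as a dashed line. The mitosis genes lie between -5.24 and -3.81 at the lower edge, the replication genes above them, and the myelin genes reach 7.78 at the top.

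Regulators of the G1 phase fell in most cases. Of 19 members, 12 fell, 5 rose and 2 were not called (median log2 change -1.21), beside 32.2% lower and 48.1% higher among all tested genes. Of the 19, 1 reached the minimum through the Oligodendrocyte libraries alone and 1 through the NSC libraries alone. Cyclin D1 (Ccnd1; ENSMUSG00000070348, mm9 chromosome 7, 152115836 to 152125774), which links growth factor signals to the cell cycle, had 1713, 1703 and 1782 CPM in NSC and 45.7 and 49.3 CPM in Oligodendrocyte (log2 change -5.16, SE 0.114, adjusted p = 1.97e-13). Cyclin D2 (Ccnd2) changed by -3.14, cyclin E2 (Ccne2) by -3.23 and the kinase Cdk2 by -2.28. Inhibitors did not move as 1 group. Cdkn2b rose by 1.02 and Cdkn1a (p21) by 0.53, with 234, 229 and 242 CPM at day 0 and 334 and 344 CPM at day 4. Cdkn2c, Cdkn2a and Cdkn1c were lower, by -1.21, -0.96 and -0.89.

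Genes switched on by the ERK kinase pathway, which carries growth factor signals to the nucleus, were lower. Of 15 members among 16 feedback regulators and ETS-family targets, 14 fell and 1 was not called, with a median log2 change of -1.78. Among all tested genes 32.2% were called lower. The receptor signalling inhibitor Spry4 had 273, 275 and 283 CPM in NSC and 9.36 and 9.81 CPM in Oligodendrocyte (log2 change -4.72, SE 0.0999). The ERK phosphatase Dusp6 had 224, 236 and 261 CPM at day 0 and 16.4 and 16.6 CPM at day 4 (log2 change -3.78). The ETS factors Etv5 and Etv4 changed by -3.5 and -3.33. All 4 genes were lower in both day 4 libraries than in any day 0 library. Immediate early genes were also lower in 9 of 11 members, led by Egr1 (-2.72, counted in both lists) and Ier3 (-1.89). Atf3, which reached the minimum through the Oligodendrocyte libraries alone, rose by 0.74. The call for Atf3 was lost under quantile normalization (adjusted p = 0.574).

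Genes of thyroid hormone action mostly rose. Of 14 listed, 11 were members, of which 8 rose and 3 fell (median log2 change 1.23). Of all tested genes, 48.1% were called higher and 32.2% lower. Hr reached the minimum through the Oligodendrocyte libraries alone and Nrgn through the NSC libraries alone. The direction of these genes against NSC was thus set by the choice of members. The receptor genes were both higher. Thra had 77.1, 73.6 and 80.3 CPM in NSC and 371 and 383 CPM in Oligodendrocyte (log2 change 2.28). Its level was also high in the media without added T3, at 403 ± 16.9 CPM in Neuron and 298 ± 5.08 CPM in Astrocyte (SD, n = 3 each). Against Neuron it was not called (log2 difference -0.09, SE 0.063, adjusted p = 0.202). Thrb had 5.93, 4.69 and 4.62 CPM at day 0 and 25.8 and 23.8 CPM at day 4 (log2 change 2.09). Hr (ENSMUSG00000022096, mm9 chromosome 14, 70952019 to 70973355), the hairless corepressor and a classical T3 target in brain, had 0.96, 0.8 and 0.96 CPM at day 0 and 177 and 157 CPM at day 4 (log2 change 6.46, SE 0.129, adjusted p = 9.72e-14). Klf9 (ENSMUSG00000033863, mm9 chromosome 19, 23215716 to 23241401), a Krüppel-like factor induced by T3, had 15.2, 14.2 and 12.9 CPM at day 0 and 90.5 and 102 CPM at day 4 (log2 change 2.69, SE 0.11). Klf9 was higher in each day 4 library, and so was Hr by the choice of members. Both were also higher than in Neuron, the medium that differs by added T3 alone per the labels. Hr had 9.02 ± 1.34 CPM (SD, n = 3) there, a log2 difference of 4.08 (SE 0.129, adjusted p = 4.40e-11). Klf9 had 28.6 ± 2.87 CPM (SD, n = 3), a log2 difference of 1.72 (SE 0.11, adjusted p = 2.03e-08). Both genes also rose from day 0 in the media without added T3. The log2 changes were 2.39 in Neuron and 4.22 in Astrocyte for Hr, and 0.97 and 0.83 for Klf9. The activating deiodinase Dio2 rose less from day 0, by 0.64, and was lower than in Neuron by a log2 difference of -1.56 (SE 0.0787). The inactivating deiodinase Dio3 did not meet the minimum. It was listed at 0 in each library of NSC, Neuron and Astrocyte and at 0.84 and 0.71 CPM in the Oligodendrocyte libraries. Nrgn, a neuronal T3 target, changed by -3.52. Thrsp, a lipogenic gene named for its response to thyroid hormone in liver, also fell, with 5.3, 5.11 and 6.74 CPM in NSC and 1.06 and 1.23 CPM in Oligodendrocyte (log2 change -1.64, SE 0.126, adjusted p = 3.55e-08). Its level in the other media was 45.8 ± 7.32 CPM (Neuron) and 79.0 ± 3.72 CPM (Astrocyte; SD, n = 3 each), so that Oligodendrocyte was lower by log2 differences of -4.44 and -5.22.

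**Figure D4:**
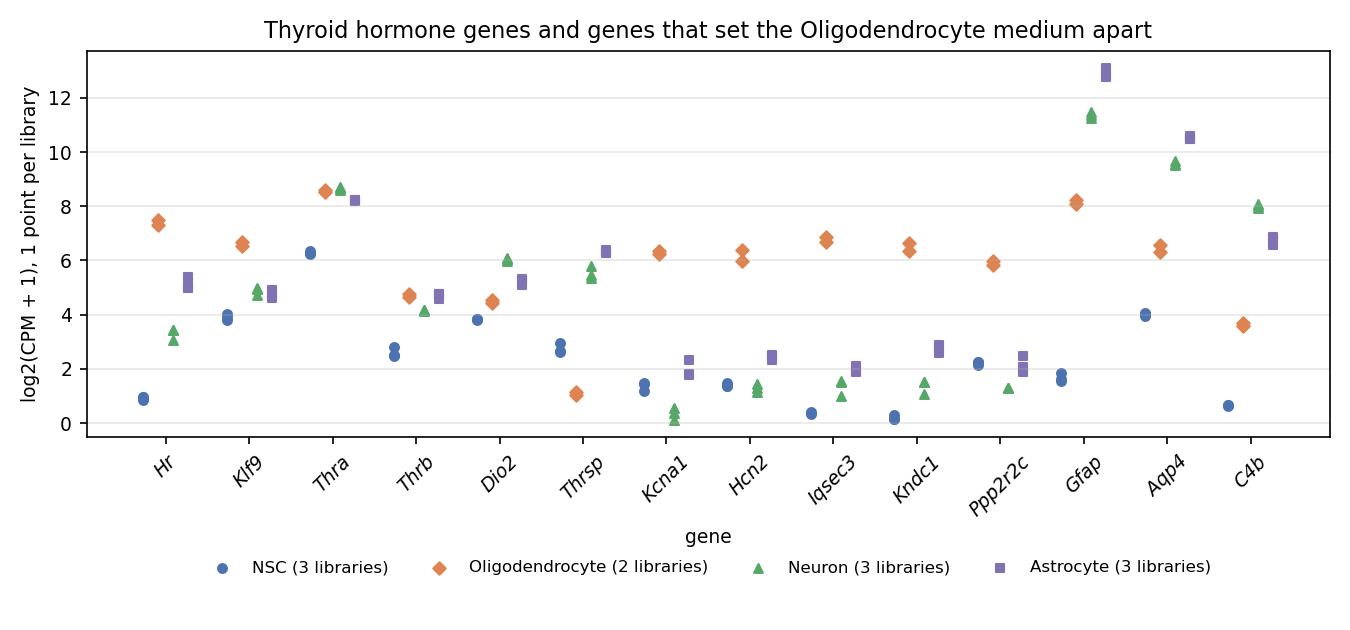
Values of log2(CPM + 1), 1 point per library, for thyroid hormone genes (left) and genes that were higher or lower in Oligodendrocyte than in both other day 4 media (right), with a symbol for each group. Hr and Klf9 are highest in the 2 Oligodendrocyte libraries, Thrsp is lowest there, and Kcna1, Hcn2, Iqsec3, Kndc1 and Ppp2r2c lie highest in Oligodendrocyte.

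Astrocyte and ependymal markers and some neuron markers rose beside the oligodendrocyte genes, and their part in the results above was not tested. Of the 11 astrocyte gene members among 12, 9 rose, 1 fell and 1 was not called, where 48.1% of all tested genes were called higher and 32.2% lower. Of these members, S100b reached the minimum through the Oligodendrocyte libraries alone. The list's sum was 1900 to 1999.8 CPM in NSC and 5575 to 6352 CPM in Oligodendrocyte. Gfap (ENSMUSG00000020932, mm9 chromosome 11, 102748650 to 102762226), the filament protein of astrocytes, had 2.08, 2.63 and 1.94 CPM in NSC and 299 and 269.6 CPM in Oligodendrocyte (log2 change 6.48, SE 0.111). The gap junction gene Gja1 rose by 4.16, the glutamine synthetase gene Glul by 3.31, S100b by 3.29 and the water channel Aqp4 by 2.42, while Aldh1l1 was lower by -0.64. Of 10 neuron gene members among 13, 1 reached the minimum through the Oligodendrocyte libraries alone. Of the 10, 6 rose and 4 fell, which is near the shares of all tested genes. The sums were 986 to 1070 CPM in NSC and 1007 to 1047 CPM in Oligodendrocyte. The migrating-neuron gene Dcx had 1.45, 2.02 and 1.33 CPM in NSC and 85.2 and 88.1 CPM in Oligodendrocyte (log2 change 5.08). Elavl3 rose by 3.25 and Tubb3 by 3.23. The largest of the 4 falls was that of Gap43, with 70.6, 67.9 and 74.5 CPM in NSC and 25.5 and 27.3 CPM in Oligodendrocyte (log2 change -1.39). Markers of mature neurons were low in both groups, with Rbfox3 at 1.36 and 1.29 CPM and Stmn2, not a member, at 0.44 and 0.25 CPM in Oligodendrocyte. Under quantile normalization 3 neuron genes were called higher and 4 lower. The ciliary factor Foxj1, an ependymal marker, had 16.4, 17.9 and 18.9 CPM in NSC and 135 and 131 CPM in Oligodendrocyte (log2 change 2.84), and all 4 ependymal members, 3 of which reached the minimum through Oligodendrocyte alone, rose (sums of 17.8 to 20.9 and 143 to 150.4 CPM).

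Markers of microglia, vessels and connective tissue were mostly under the minimum. None of 10 microglia genes was a member, with sums of 0.29 to 0.47 CPM in NSC and 0.95 to 1.08 CPM in Oligodendrocyte, and Aif1 and C1qb were listed at 0 in all 5 libraries. The endothelial genes Pecam1, Cdh5 and Cldn5 were at or under 0.26 CPM in all 5 libraries. The 2 endothelial members were Kdr, which rose by 0.69 but was not called under quantile normalization (adjusted p = 0.882), and Cd93 (ENSMUSG00000027435, mm9 chromosome 2, 148262376 to 148269299), a surface receptor, which had 116, 111 and 107 CPM in NSC and 1.48 and 1.8 CPM in Oligodendrocyte (log2 change -5.41, SE 0.0953, adjusted p = 4.69e-14). Of the mesenchymal and mural genes, Col1a1 had 0.35, 0.23 and 0.27 CPM in NSC and 0.05 and 0.13 CPM in Oligodendrocyte. Pdgfrb rose by 2.95 and Tagln was lower by -1.01. Pdgfrb reached the minimum through the Oligodendrocyte libraries alone, so that its direction was set by the choice of members.

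**Figure D5:**
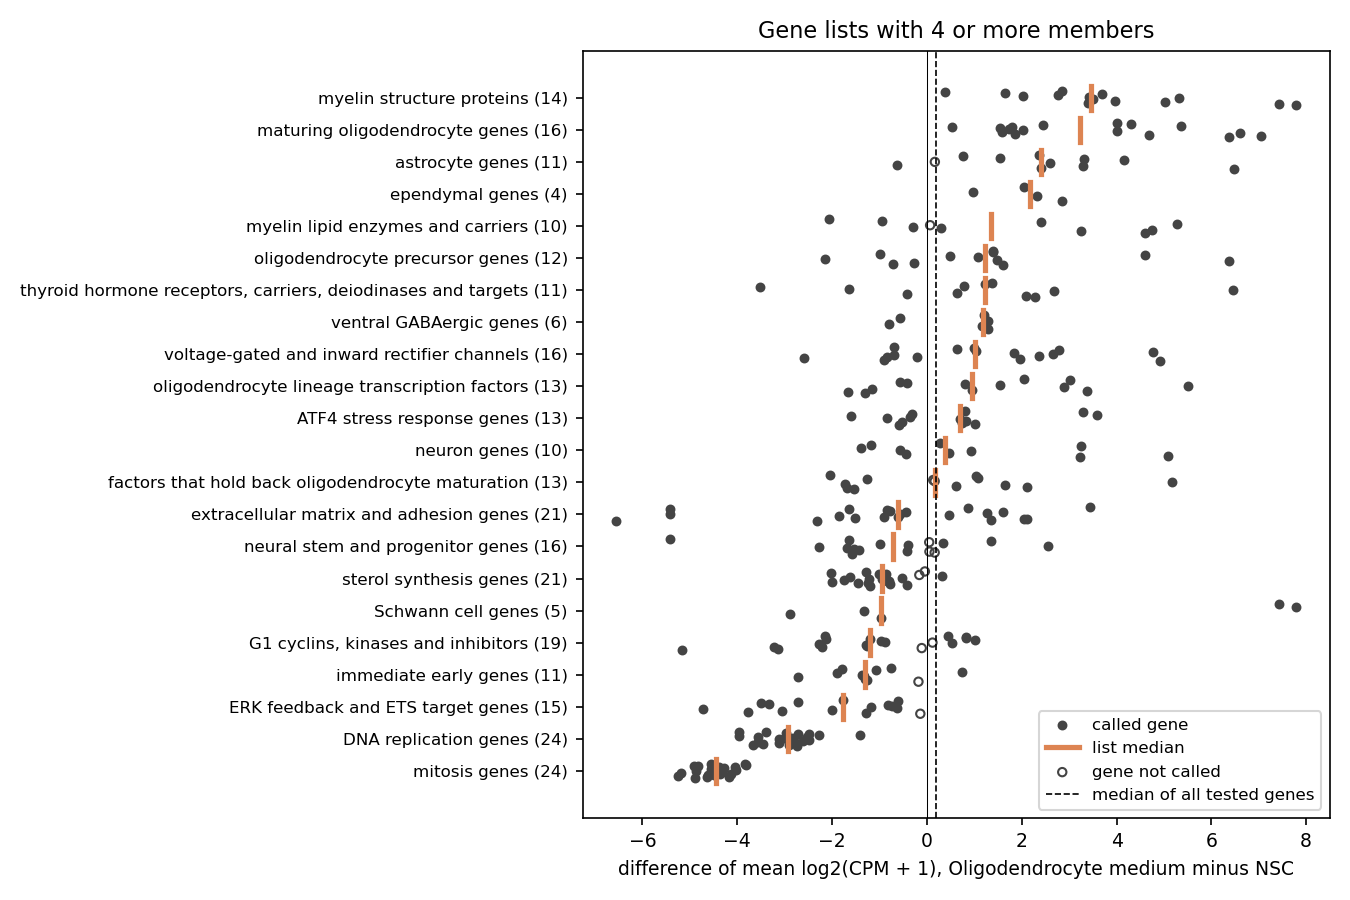
Change in Oligodendrocyte against NSC (horizontal axis, difference of mean log2(CPM + 1)) for each member of the lists with at least 4 members, 1 row per list with its number of members. Filled points are called genes, open points are not, the orange bar is the list's median and the dashed line the median of all tested genes, and the medians run from -4.45 for mitosis to 3.46 for myelin structure.

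Genes of cholesterol synthesis were lower at day 4. Of the 21 members of a list of 22 sterol genes, 18 fell, 1 rose and 2 were not called (median log2 change -0.94), where 32.2% of all tested genes were called lower. The list's sum was 3837 to 3991 CPM in NSC and 1941 to 2107 CPM in Oligodendrocyte. Fdps, which makes farnesyl diphosphate, had 244, 230.4 and 262 CPM at day 0 and 54.7 and 67.1 CPM at day 4 (log2 change -2.0, SE 0.0956). Both day 4 libraries lay below all day 0 libraries in this gene. The gene that rose, Hsd17b7 (0.33, adjusted p = 0.0339), was no longer called under median-of-ratios scaling (adjusted p = 0.384) or with any 1 library left out (adjusted p from 0.0529 to 0.136). Against the Neuron medium the same list stood higher: 17 of the 21 were called higher in Oligodendrocyte and none lower, where 43.9% of all tested genes were called higher, 23.6% lower and 67.5% in either direction. Fdps, for example, had 60.9 ± 8.78 CPM (SD, n = 2) in Oligodendrocyte and 39.7 ± 1.58 CPM (SD, n = 3) in Neuron (log2 difference 0.6, SE 0.0956, adjusted p = 0.000101).

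Matrix and adhesion genes changed in both directions. Of 21 members, 8 rose and 13 fell (median log2 change -0.62), beside 48.1% higher and 32.2% lower among all tested genes. Of the 21, 1 reached the minimum through the Oligodendrocyte libraries alone and 1 through the NSC libraries alone. Fbln2 (ENSMUSG00000064080, mm9 chromosome 6, 91162449 to 91222534), an extracellular fibulin, had the largest fall of all members with a group mean of at least 10 CPM, from 187, 183 and 204 CPM to 1.04 and 1.07 CPM (log2 change -6.55, SE 0.159, adjusted p = 3.86e-13). Its relative Fbln1 changed by -2.32, and the laminin gene Lamb1 by -1.85. The inhibitor of matrix proteases Timp3 rose, from 26.5, 29.6 and 29.2 CPM to 327 and 313 CPM (log2 change 3.45), as did the collagen IV genes Col4a1 (2.06) and Col4a2 (2.11).

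Ion channel genes changed in both directions. Of 16 members, 10 were called higher and 6 lower, where 48.1% of all tested genes were higher and 32.2% lower. Of the 16, 2 reached the minimum through the Oligodendrocyte libraries alone, so that their direction was set by the choice of members. Under quantile normalization 9 were higher, 5 lower and 2 not called. Kcna1, a potassium channel subunit, had 1.81, 1.73 and 1.25 CPM in NSC and 74.7 and 79.8 CPM in Oligodendrocyte (log2 change 4.92, SE 0.168). Hcn2, a pacemaker channel known in myelinating oligodendrocytes, had 1.6, 1.8 and 1.57 CPM at day 0 and 62.8 and 82.3 CPM at day 4 (log2 change 4.78, SE 0.126). The glial potassium channel Kcnj10 rose by 2.37 and Kcnk1 by 2.67, whereas Kcnc1 was lower by -2.6. In the amino acid and stress response driven by ATF4, 7 of 13 members rose and 6 fell, shares near those of all tested genes. Under quantile normalization 5 were higher, 6 lower and 2 not called, and the list's median log2 change went from 0.70 to 0.07. The factor Atf5 had 28.7, 27.5 and 30.7 CPM at day 0 and 266 and 324 CPM at day 4 (log2 change 3.3), and the cystine transporter Slc7a11 had 20.1, 19.3 and 16.6 CPM at day 0 and 263 and 207 CPM at day 4 (log2 change 3.58), but Atf4 itself was lower by -0.58.

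By reads gained, the largest shares went to genes of iron storage, antioxidant defence and lipids. The ferritin heavy chain gene Fth1 had 292, 273 and 294 CPM in NSC and 3869 and 3795 CPM in Oligodendrocyte. The peroxiredoxin gene Prdx6 had 143, 141 and 155 CPM at day 0 and 3581 and 3564 CPM at day 4, and the desaturase gene Scd2 had 2989.8, 3076 and 3041 CPM at day 0 and 6180.3 and 5795 CPM at day 4. Pla2g7, a lipoprotein-associated phospholipase, Glul and the lipid carrier gene Apoe followed, with means of 2003, 2095 and 1767 CPM at day 4. The largest losses were those of the translation factor gene Eef1a1, with 4717, 4766 and 4965 CPM in NSC and 1923 and 2137 CPM in Oligodendrocyte, Ccnd1, the creatine kinase gene Ckb, Fabp7, Tnc and Hnrnpa2b1. Because CPM is a share of all reads, such gains lower the share left for other genes.

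The 2 other day 4 media shared part of this response, and all 3 comparisons with day 0 use the same NSC libraries, so they are set side by side without a measure of likeness. Beside 594 ± 86.2 CPM of Mbp in Oligodendrocyte (SD, n = 2), the level was 495 ± 34.4 CPM in Neuron and 38.1 ± 8.52 CPM in Astrocyte (SD, n = 3 each). Against Neuron the log2 difference was 0.26 (SE 0.16, adjusted p = 0.173), and against Astrocyte it was 3.94 (SE 0.16, adjusted p = 8.05e-10). The early gene Enpp6 was likewise not called against Neuron, with 181 ± 40.8 CPM there (SD, n = 3) and a log2 difference of -0.13 (SE 0.181). A missed threshold does not show equal levels. Of the 14 myelin structure members, 7 were called higher in Oligodendrocyte than in Neuron, 3 lower and 4 neither way, which is near the shares of all tested genes (43.9% higher and 23.6% lower). Against Astrocyte 11 were higher and 3 lower, where 28.7% of all tested genes were called higher, 23.5% lower and 52.2% in either direction. Of the 16 maturing genes, 11 were called higher than in Neuron and 2 lower, beside the same shares of 43.9% and 23.6%.

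Mog and a further group of genes were higher in Oligodendrocyte than in both. Mog had 0.37, 0.45 and 0.76 CPM in the Neuron libraries and 1.71, 1.44 and 0.81 CPM in the Astrocyte libraries, below both Oligodendrocyte libraries, with a log2 difference of 2.8 to Neuron (SE 0.152, adjusted p = 4.01e-09) and of 2.21 to Astrocyte (SE 0.152, adjusted p = 7.33e-08). Mobp, an abundant protein of compact myelin, differed by 1.33 and 3.53, Tspan2 by 2.27 and 2.44, Lpar1 by 2.67 and 2.84, and the factor Zfp536 by 2.9 and 3.0. Precursor genes were lower than in Neuron: 9 of 12 were called lower and none higher, where 23.6% of all tested genes were lower, among them Pdgfra (211 ± 37.4 CPM in Neuron, SD, n = 3; log2 difference -1.64) and Cspg5 (-2.28). Sox10 was lower than in Neuron as well (135 ± 16 CPM there, SD, n = 3; log2 difference -1.83, SE 0.137), although Myrf was higher (0.82, SE 0.226, adjusted p = 0.00573), a call lost without Oligodendrocyte replicate 2 (adjusted p = 0.0543).

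Replication genes were mostly higher than in Neuron. Of the 24 replication genes, 18 were called higher in Oligodendrocyte than in Neuron and 3 lower, where 43.9% and 23.6% of all tested genes were. Mcm5 had 11.4 ± 0.481 CPM in Oligodendrocyte (SD, n = 2) and 2.87 ± 0.141 CPM in Neuron (SD, n = 3), a log2 difference of 1.68 (SE 0.0986). Nes and Cdkn1a also stayed higher than in Neuron, by 2.56 and 2.53 (adjusted p = 9.76e-11 and 2.45e-11). Of the 11 astrocyte members, 2 were called higher and 8 lower than in Neuron, and 4 higher and 6 lower than in Astrocyte. Over all tested genes the lower shares were 23.6% and 23.5%. Gfap had 2647 ± 189.9 CPM in Neuron and 7631 ± 934 CPM in Astrocyte (SD, n = 3 each), above both Oligodendrocyte libraries by log2 differences of -3.21 and -4.74 on the scale Oligodendrocyte minus the other medium. Ranked by the smaller of the 2 differences, the 5 genes farthest above both other media were Iqsec3, Kndc1, Kcna1, Hcn2 and Ppp2r2c, and the 5 farthest below were Gfap, C4b, Aqp4, Usp35 and Thrsp. Iqsec3 (ENSMUSG00000040797, mm9 chromosome 6, 121322948 to 121423696), an exchange factor for Arf proteins at synapses, had 102 and 114 CPM in Oligodendrocyte, 1.59 ± 0.508 CPM in Neuron and 2.98 ± 0.333 CPM in Astrocyte (SD, n = 3 each), which are log2 differences of 5.41 and 4.78. Kcna1 differed by 5.95 and 4.33, and Hcn2 by 4.9 and 3.75. C4b, a complement component, was lower than in both, by -4.38 and -3.12.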

How the data were processed

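The authors deposited CPM values for 37991 genes in 11 libraries, rounded to 2 decimals, with mm9 coordinates per the file headers. TopHat2 2.0.8, HTSeq 0.6.1 and edgeR 3.2.4 on NCBIM37 are listed per the submitters' processing notes, with no settings. Of the annotation release and the use of strand in counting nothing is stated (not given in the sources used here), so overlapping and near-identical genes are uncertain. Values were analysed as log2(CPM + 1). The 13342 genes that reached 1 CPM in 2 or more of the 11 libraries entered 1 linear model in limma 3.58.1 (R 4.3.3) with a mean per group and eBayes with a trend (7 residual and 5.96 prior degrees of freedom). Tests were two-sided, and p-values were adjusted by the BH method over all 13342 genes in each comparison. The rounding kept whole read numbers from being recovered for nearly all genes, so no count test was run. Depth was estimated from the spacing of low values. The fit was tested on simulated data.

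Named genes were the 12 largest rises and falls among called members with at least 10 CPM and no overlap, the 6 largest gains and losses of CPM, members of 26 gene lists (all of the 4 oligodendrocyte lists, otherwise up to 4 with the largest change, 1 in the opposite direction and 2 not called), the marker genes, and the 5 genes farthest above and below both other media. Gene names of the lists were matched by identifier, 373 of 374. Some genes that this rule names are not reported here. The members and lists were chosen with earlier results of these data known. Promoters are from RefSeq, GRCm38.p6, a different build from the table's, and were joined by symbol.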

Additional observations from a re-analysis of the deposited data

Results flagged for a closer look

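Thrsp and Kcna1 stand here because they changed by at least 2-fold in opposite directions from day 0 in different media, with the difference itself tested in the same limma model. Thrsp was lower than NSC in Oligodendrocyte (log2 change -1.64) and higher in Neuron (2.80) and Astrocyte (3.58). Its differences were -4.44 for Oligodendrocyte minus Neuron (SE 0.126, adjusted p = 1.89e-11) and -5.22 for Oligodendrocyte minus Astrocyte (SE 0.126, adjusted p = 1.64e-11), and both Oligodendrocyte libraries lay below every library of the other groups. Kcna1 was higher than NSC in Oligodendrocyte (log2 change 4.92) and lower in Neuron (-1.03), a difference of 5.95 (SE 0.168, adjusted p = 1.83e-11). Its fall in Neuron was between low values, from 1.81, 1.73 and 1.25 CPM in NSC to 0.28, 0.09 and 0.46 CPM, near or below the minimum of 1 CPM. These genes were picked from those named above, and no cause was tested. Groups of 2 or 3 libraries were too small to look for single outlying libraries.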

How the results depend on the processing

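The number of members called lay between 10088 and 10952 under another pseudocount, no filter, another scaling, no variance trend or a fit of the 5 libraries alone, and a filter at 5 CPM left 11431 members with 9289 calls. Leaving out 1 library gave 9595 to 10129 calls, and 4254 to 4303 calls of at least 2-fold. Where an Oligodendrocyte library was left out, the other was assumed to vary like the remaining groups. The 2-fold count fell to 2819 with a pseudocount of 5, which shrinks the change of low genes, and was 3775 to 4868 under the other settings. With the replicate number as a block, 10303 members were called over all 11 libraries and 11046 over the 5. Libraries with the same number correlated from -0.51 to 0.41 in their deviations from the group means, and those with different numbers from -0.54 to 0.54. Deviations within a group of 2 or 3 libraries are tied to each other. These values therefore cannot show whether a number stands for a shared culture or litter. No label gives a pairing, and none was used in the main fit.

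Of 2751 values recomputed for the 196 results on single genes, 2725 kept their direction and their side of the threshold. Direction changed for Pax6 (-0.158 under median-of-ratios scaling, -0.0615 under quantile normalization, and from -0.0351 to 0.142 when 1 library was left out) and for Sox2 (-0.0523 under median-of-ratios scaling). Quantile normalization turned Ermn (-0.0126) and Rbfox3 (-0.19). Sox2 was called in the fit of the 5 libraries alone (adjusted p = 0.0152) and under quantile normalization (0.00969). The cause was not tested. With 2 Oligodendrocyte libraries, the calls rest on a spread pooled over all groups.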

Other observations

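Genes of antioxidant defence and glutathione synthesis were higher in the Oligodendrocyte medium than at day 0 and than in both other media. These genes were chosen after their values had been seen, so the values are a description. Srxn1, which repairs oxidised peroxiredoxins, had 11.8, 11.8 and 12.8 CPM in the NSC libraries and 1092 and 1019 CPM in the Oligodendrocyte libraries, beside means of 35.1 CPM in Neuron and 124 CPM in Astrocyte. Gclm, a subunit of the enzyme that starts glutathione synthesis, had 54.7, 53.4 and 52.0 CPM at day 0 and 721 and 608 CPM at day 4, beside means of 197 CPM in Neuron and 231 CPM in Astrocyte. Txnrd1, a thioredoxin reductase, had 226, 225 and 219 CPM at day 0 and 1040.0 and 882 CPM at day 4, beside means of 121 CPM in Neuron and 218 CPM in Astrocyte. Hmox1, the haem oxygenase, had 19.2, 19.4 and 20.2 CPM at day 0 and 198 and 158 CPM at day 4, and the quinone reductase Nqo1 had 4.49, 5.47 and 5.29 CPM at day 0 and 43.0 and 33.1 CPM at day 4. All 5 were higher in both Oligodendrocyte libraries than in any NSC library, and no cause was tested. The metallothionein gene Mt1 had 39.8, 37.5 and 46.9 CPM in NSC and 1184 and 998 CPM in Oligodendrocyte, with means of 751 CPM in Neuron and 1057 CPM in Astrocyte.

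Further genes known from myelinating cells, also picked after their values were seen, were the tubulin Tubb4a (8.14, 7.95 and 8.9 CPM in NSC, 529 and 625 CPM in Oligodendrocyte), the microtubule protein Tppp (3.63, 3.63 and 3.76 CPM at day 0 and 77.4 and 90.1 CPM at day 4), Ninj2 (0, 0 and 0 CPM at day 0 and 6.07 and 6.86 CPM at day 4) and the sphingosine phosphate receptor S1pr5 (0.19, 0.14 and 0.19 CPM at day 0 and 4.45 and 6.04 CPM at day 4). Each was higher in both Oligodendrocyte libraries than in any NSC library, which for Ninj2 and S1pr5 followed from the choice of members. The means in Neuron and Astrocyte were 294 and 93.2 CPM for Tubb4a and 11.5 and 6.93 CPM for Tppp. They were 0.183 and 0.65 CPM for Ninj2 and 0.377 and 0.243 CPM for S1pr5. The 77 ribosomal protein genes among the members had a median log2 change of -1.09 with a range from -1.82 to -0.57, and their sum was 29518 to 34109 CPM in NSC and 13793 to 14868 CPM in Oligodendrocyte. The mitochondrial genes and the ferritin genes took a larger share of the reads at day 4, and the part of such shifts in the ribosomal values was not tested.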
